A study of Mus musculus with 6 samples.

Results

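The 42 genes described here are expressed by resting astrocytes, and they carry the transport, metabolic and identity functions of that cell. They were chosen by gene name, as known genes of the cell type. No measured value enters the rule, but the list was chosen with earlier results of these data known. All 42 were found among the 21899 genes counted. All 42 passed the filter on low counts, which 14956 genes passed in all. By role they fall into transmitter and amino acid uptake (7 genes), water, ions and cell contacts (9), metabolic enzymes (10), identity and signalling (8) and secreted and surface proteins (8).

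Astrocytes clear glutamate and GABA from the synaptic cleft, return glutamine to neurons, buffer potassium and bicarbonate, and move water through endfeet that cover the blood vessels. They are joined to each other by gap junctions and form a glycolytic and glycogen-storing compartment of the brain. After radiation or other injury they become reactive, a state marked by more intermediate filament and by secreted acute phase proteins. Genes of the resting state and of the reactive state can move separately, so the lists were kept apart.

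RNA was sequenced from thalamus tissue of 6 male C57BL/6J mice of the WT genotype, bought at 8 to 10 weeks of age. The tissue was the part beneath the hippocampus, taken with tweezers from a coronal slice, with its mixture of cells. All 6 mice had received 50 Gy to the left thalamic region and, 2 weeks later, 2 µL of virus into the thalamus, and the tissue dates from 6 weeks after the radiation. The 3 RC mice (radiation and control virus) received AAV9 GFAP104::tdTomato, which makes a red fluorescent protein. The 3 RN mice (radiation and NeuroD1) received AAV9 GFAP104::mND1-tdTomato, which adds the mouse neuronal transcription factor NeuroD1 (ND1). In both viruses the promoter was GFAP104, a promoter of GFAP type for more specific expression in astrocytes. Astrocytes are the cells whose genes are described here. According to the paper, AAV9 itself infects neurons as well as astrocytes. Mice without radiation were not analysed here, so no value below says how far either group lay from an uninjured thalamus. Library totals lay between 16561663 and 18657015 counts. Counts of Neurod1, which can include the viral transcript, were 84, 91 and 90 in RC and 1123, 1711 and 910 in RN. The 14 thalamic neuron markers were detected, with summed levels of 1584 to 2789 CPM (counts scaled to library size with TMM factors) in RC and 1234 to 2082 CPM in RN.

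NeuroD1 is a basic helix-loop-helix factor that binds E-boxes, sites of the form CANNTG and often CAGATG. The start windows of members were therefore read from RefSeq on build GRCm38.p6, from 250 bases before to 50 bases after each annotated start. The counts were made on GRCm39 according to the submitters' processing notes, so these positions belong to GRCm38.p6 alone. Windows were held for 37 of the 42 members, 47 windows in all. Below are windows of 4 of the 5 members with the smallest p in the comparison of RN with RC, shown so that the E-boxes near their starts can be read, written 5′ to 3′ on the gene's own strand, with every CANNTG in capitals.
Cldn10, upstream start, chr14:118787621-118787920, plus strand: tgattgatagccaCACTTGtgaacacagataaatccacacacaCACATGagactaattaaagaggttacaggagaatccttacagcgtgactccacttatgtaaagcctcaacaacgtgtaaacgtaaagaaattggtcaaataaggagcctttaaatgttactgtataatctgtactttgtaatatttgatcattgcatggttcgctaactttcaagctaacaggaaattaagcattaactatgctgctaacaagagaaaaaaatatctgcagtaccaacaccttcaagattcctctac
Cldn10, downstream start, chr14:118854700-118854999, plus strand: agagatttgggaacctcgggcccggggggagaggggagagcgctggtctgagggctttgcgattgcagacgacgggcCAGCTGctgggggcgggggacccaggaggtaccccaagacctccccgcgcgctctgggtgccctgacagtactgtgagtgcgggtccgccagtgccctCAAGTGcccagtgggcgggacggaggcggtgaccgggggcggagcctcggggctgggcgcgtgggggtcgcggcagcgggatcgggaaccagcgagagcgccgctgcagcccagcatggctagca
Aldoc, first of 2 starts, chr11:78322823-78323122, plus strand: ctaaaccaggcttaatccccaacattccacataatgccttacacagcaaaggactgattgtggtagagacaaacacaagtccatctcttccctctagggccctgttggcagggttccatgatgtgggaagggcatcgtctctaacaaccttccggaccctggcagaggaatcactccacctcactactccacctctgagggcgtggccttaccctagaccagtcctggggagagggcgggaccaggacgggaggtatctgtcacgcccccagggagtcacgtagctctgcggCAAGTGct
Slc39a12, chr2:14388148-14388447, plus strand: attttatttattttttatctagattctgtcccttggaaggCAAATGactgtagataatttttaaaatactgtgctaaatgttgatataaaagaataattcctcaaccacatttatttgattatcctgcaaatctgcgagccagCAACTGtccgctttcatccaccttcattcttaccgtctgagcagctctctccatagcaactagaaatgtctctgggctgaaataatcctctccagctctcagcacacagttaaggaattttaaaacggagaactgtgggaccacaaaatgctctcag
Etnppl, first of 2 starts, chr3:130617198-130617497, plus strand: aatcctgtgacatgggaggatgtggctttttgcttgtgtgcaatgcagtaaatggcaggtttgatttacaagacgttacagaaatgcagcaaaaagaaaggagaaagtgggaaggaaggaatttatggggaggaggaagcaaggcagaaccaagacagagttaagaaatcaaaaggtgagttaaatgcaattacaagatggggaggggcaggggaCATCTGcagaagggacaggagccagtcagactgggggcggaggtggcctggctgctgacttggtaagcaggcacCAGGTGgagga
The Etnppl window holds CATCTG, which is CAGATG read on the other strand, beginning 35 bases before the start. The other windows shown hold general E-boxes without the CAGATG form. The second Aldoc window holds no CANNTG, and of the 2 windows of Slc4a4, the other member of the 5, 1 holds a single CAGGTG and 1 holds none.

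The letters CAGATG, on either strand, were found in 6 of 47 member windows (12.8%) and in 17.2% of all 32851 windows of the same length. The member windows that held them belonged to Acsbg1, Agt, Bmpr1b, Etnppl and Slc25a18. The 2 windows of Etnppl overlap and hold the same site. By gene, 5 of 37 members (13.5%) and 19.2% of all genes held these letters. The general CANNTG, which includes CAGATG, was found in 35 member windows (74.5%) and in 72.3% of all windows. TTGGCA, bound by NFI factors, was found in 4 member windows (8.51%, against 14.1% of all), and ACAATG, of SOX factors, in 1 (2.13% against 12.6%). TTCNNNGAA, bound by STAT factors, was found in 8 (17.02% against 8.3%). These counts describe letters in windows near the starts and were not tested.

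In the comparison of RN with RC, 39 of the 42 genes had a log2 fold change below 0, where 49.2% of all tested genes did. The median over the 42 genes was -0.42, a level 25.1% lower in RN, and the median over all tested genes was 0.00372. The quartiles of the members were at -0.52 and -0.28. The members at the ends were Cldn10, a tight junction protein, at -0.83, and Chrdl1, a secreted BMP antagonist, at 0.68. No member was 2-fold lower or higher.

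A gene was called where its Benjamini-Hochberg adjusted p in edgeR's quasi-likelihood test lay under 0.05 and its change reached 2-fold. This rule called 0 of the 42 members, where it called 0.0134% of all tested genes lower and 0.0602% higher in RN. Adjusted p-values of the members ran from 0.063 (Cldn10) to 0.959 (Htra1). At an unadjusted p under 0.05, 29 members were lower (69.0%) and 1, Chrdl1, was higher (2.38%), where the shares of all tested genes were 6.33% lower and 5.44% higher. In 27 members (64.3%) each RN mouse lay below each RC mouse, where 8.12% of tested genes showed this. In 1 member (Chrdl1) each RN mouse lay above each RC mouse, where 8.18% did, and in the other 14 the groups overlapped. DESeq2's Wald test gave 16 members an adjusted p under 0.05 with no fold threshold, all lower in RN, where 1.55% of its 16228 genes were lower and 1.38% higher. They were Slc6a11, Slc7a10, Aqp4, Gja1, Gjb6, Slc4a4, Hepacam, Cldn10, Slc39a12, Aldoc, Aldh1l1, Acsbg1, Etnppl, Sox9, Ndrg2 and F3, and none was 2-fold lower. This count of 16 was 7 without RN replicate 1 (0.734% of all genes in that fit), 10 without RC replicate 2 (0.827%), 5 with a choroid plexus score as covariate (0.76%) and 21 with the replicate block (1.39%). The RNA of whole tissue does not show whether fewer astrocytes or less RNA per astrocyte was measured, and these cannot be told apart here.

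**Figure D1:**
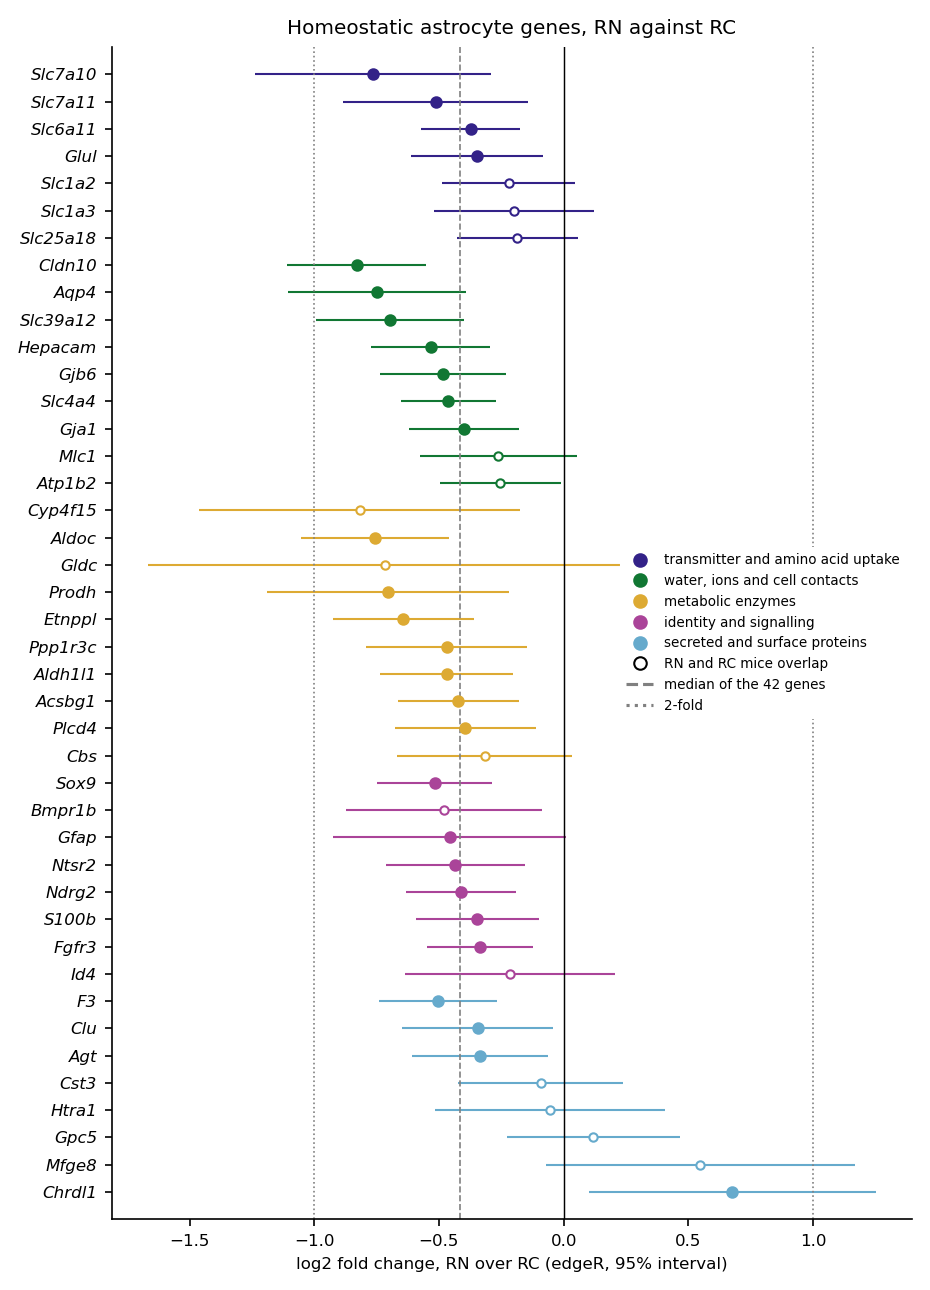
Log2 fold change of each member, RN over RC, with its 95% interval from edgeR (x axis, log2 scale), grouped by role and coloured. Filled points are members whose RC and RN mice did not overlap, the dashed line is the median of the 42 genes at -0.42, and 29 intervals lie below 0.

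Among the 9 genes of water, ions and cell contacts, all had log2 fold changes below 0, with a median of -0.48, and 7 had no overlap between the groups. DESeq2 gave 7 of them an adjusted p under 0.05 and edgeR none. Over all genes, 8.12% were lower without overlap and 1.55% were lower in DESeq2, the shares for each role below. Cldn10, the claudin, measured 39.5, 43.5 and 49.8 CPM in RC replicates 1, 2 and 3 and 22.5, 26.4 and 25.8 CPM in RN replicates 1, 2 and 3 (log2 fold change -0.83 ± 0.12 SE, adjusted p = 0.063 in edgeR and 1.23e-05 in DESeq2). The 6 mice fell into separate ranges, and the highest RN mouse was well under the lowest RC mouse. Slc39a12, a zinc importer, measured 135, 156 and 127 CPM in the RC mice and 75.2, 100.4 and 82.6 CPM in the RN mice (log2 fold change -0.70 ± 0.13 SE, adjusted p = 0.0986 in edgeR and 0.00022 in DESeq2). For Slc4a4, the sodium bicarbonate cotransporter, the values were 308, 296 and 268 CPM in the RC mice and 207, 216 and 209 CPM in the RN mice (log2 fold change -0.46 ± 0.08 SE, adjusted p = 0.0949 in edgeR and 0.000272 in DESeq2). The RN mice of Slc4a4 lay close together, in a narrower range than the RC mice.

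Aqp4, the water channel of the endfeet, was measured at 506, 415 and 381 CPM in the RC mice and 233, 316 and 227 CPM in the RN mice (log2 fold change -0.75 ± 0.16 SE, adjusted p = 0.124 in edgeR and 0.000414 in DESeq2). RN replicate 2 was the highest of its group and still lay below each RC mouse. Hepacam, an adhesion protein that holds MLC1 and chloride channels at cell junctions, measured 159.7 ± 18.6 CPM in RC against 110.4 ± 6.22 CPM in RN (mean ± SD, n = 3; log2 fold change -0.53 ± 0.10 SE, adjusted p = 0.107 in edgeR). The gap junction genes Gja1 (connexin 43) and Gjb6 (connexin 30) had log2 fold changes of -0.40 and -0.48, neither with overlap. Mlc1, a membrane protein of the endfeet, had -0.26 (95% interval -0.58 to 0.05), and Atp1b2, the beta 2 subunit of the sodium pump, had -0.25 (-0.50 to -0.01). In these last genes the RC and RN mice overlapped.

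All 7 uptake genes also had log2 fold changes below 0, with a median of -0.35. In 4 of them the groups did not overlap, and 2, Slc6a11 and Slc7a10, had an adjusted p under 0.05 in DESeq2. Slc6a11, the GABA transporter GAT3, measured 806, 811 and 760.0 CPM in the RC mice and 602, 669 and 565 CPM in the RN mice (log2 fold change -0.37 ± 0.09 SE, adjusted p = 0.138 in edgeR and 0.0113 in DESeq2). Slc7a10, which carries serine and glycine, measured 37.7, 58.6 and 36.0 CPM in the RC mice and 22.0, 30.5 and 25.3 CPM in the RN mice (log2 fold change -0.76 ± 0.21 SE, adjusted p = 0.19 in edgeR and 0.0167 in DESeq2). RC replicate 2 stood above the other RC mice of Slc7a10, and the log2 fold change ran from -0.90 to -0.51 when each mouse was left out in turn. Slc7a11, the cystine and glutamate exchanger, measured 66.6, 42.3 and 51.7 CPM in the RC mice and 40.0, 38.3 and 34.3 CPM in the RN mice (log2 fold change -0.51 ± 0.16 SE, adjusted p = 0.242 in edgeR and 0.0982 in DESeq2). Its lowest RC mouse and highest RN mouse were close to each other.

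Slc25a18, Slc1a3 and Slc1a2, which carry glutamate, had the log2 fold changes nearest to 0 within this role. Slc1a2 (GLT-1) measured 1333 ± 141 CPM in RC against 1143 ± 143 CPM in RN (mean ± SD, n = 3; log2 fold change -0.22 ± 0.12 SE, adjusted p = 0.53 in edgeR) and Slc1a3 (GLAST) had a log2 fold change of -0.20 (95% interval -0.52 to 0.12). Slc25a18, a mitochondrial glutamate carrier, had -0.19 (-0.43 to 0.06). The groups overlapped in these 3 genes, and their intervals hold 0 but do not reach a 2-fold change. Glul, glutamine synthetase, measured 1570.4 ± 248 CPM in RC against 1234 ± 60.7 CPM in RN (log2 fold change -0.35 ± 0.11 SE, adjusted p = 0.266 in edgeR) without overlap.

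The 10 metabolic enzymes had the lowest median of the 5 roles, -0.56, with all log2 fold changes below 0, 7 genes without overlap and 4 at an adjusted p under 0.05 in DESeq2. The roles were not tested against each other. Aldoc, the aldolase of brain glycolysis, measured 1111, 1515 and 1448 CPM in the RC mice and 722, 865 and 825 CPM in the RN mice (log2 fold change -0.76 ± 0.13 SE, adjusted p = 0.0836 in edgeR and 1.89e-05 in DESeq2). With the replicate number as a block, Aldoc was the only member with an edgeR adjusted p under 0.05 (adjusted p = 0.0473, at a fold change below 2). The groups were separate, with RN replicate 2 the nearest to RC. Etnppl, an enzyme that degrades phosphoethanolamine, measured 77.5, 67.5 and 75.3 CPM in the RC mice and 49.3, 39.2 and 52.5 CPM in the RN mice (log2 fold change -0.64 ± 0.12 SE, adjusted p = 0.0992 in edgeR and 0.0011 in DESeq2). Aldh1l1, the folate enzyme used as a general astrocyte marker, measured 88.4, 116 and 94.5 CPM in the RC mice and 71.2, 76.5 and 68.2 CPM in the RN mice (log2 fold change -0.47 ± 0.12 SE, adjusted p = 0.16 in edgeR and 0.023 in DESeq2). Acsbg1, an acyl-CoA synthetase, had a log2 fold change of -0.42 without overlap.

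Among the other enzymes, Ppp1r3c, which targets a phosphatase to glycogen, Prodh, the first enzyme of proline breakdown, and Plcd4, a phospholipase C, had log2 fold changes of -0.47, -0.70 and -0.40 without overlap. Cyp4f15, a fatty acid hydroxylase, was at -0.82 (95% interval -1.46 to -0.17), and Cbs, which makes cystathionine, at -0.32 (-0.67 to 0.03), both with overlap. Gldc, of the glycine cleavage system, measured 10.3, 29.2 and 11.1 CPM in the RC mice and 8.45, 8.45 and 13.8 CPM in the RN mice (log2 fold change -0.72 ± 0.41 SE, adjusted p = 0.577 in edgeR). The difference of Gldc rested on RC replicate 2, and without that mouse its log2 fold change was -0.06.

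The 8 identity and signalling genes had a median log2 fold change of -0.42, all below 0, with 6 free of overlap. Sox9, the glial transcription factor found in nearly all astrocytes, measured 39.3, 41.2 and 37.9 CPM in the RC mice and 25.8, 26.9 and 29.9 CPM in the RN mice (log2 fold change -0.52 ± 0.10 SE, adjusted p = 0.106 in edgeR and 0.00602 in DESeq2). Ndrg2, a cytoplasmic protein of astrocytes, measured 1067, 1333 and 1232 CPM in the RC mice and 882, 897 and 949 CPM in the RN mice (log2 fold change -0.41 ± 0.10 SE, adjusted p = 0.137 in edgeR and 0.0105 in DESeq2). The RN mice of both genes were closer together than the gap that separated them from RC. Fgfr3, a receptor for fibroblast growth factors, measured 128, 154 and 148 CPM in the RC mice and 110.0, 115 and 116 CPM in the RN mice (log2 fold change -0.33 ± 0.09 SE, adjusted p = 0.2 in edgeR and 0.0751 in DESeq2). The calcium-binding protein S100b, whose protein was stained in the study, measured 268, 335 and 310.5 CPM in the RC mice and 225, 263 and 230.1 CPM in the RN mice (log2 fold change -0.35 ± 0.11 SE, adjusted p = 0.236 in edgeR and 0.111 in DESeq2). All RN values of S100b and Fgfr3 lay below those of RC, and neither gene passed either adjusted test.

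Gfap, the intermediate filament that is abundant in reactive astrocytes and the source of the viral promoter, measured 2169.8, 3082 and 2130.2 CPM in the RC mice and 1304, 2108 and 1967 CPM in the RN mice (log2 fold change -0.46 ± 0.20 SE, adjusted p = 0.435 in edgeR and 0.264 in DESeq2). RN replicate 1 and RC replicate 2 were the extremes of Gfap, while RN replicate 2 lay just below RC replicate 3. Gfap was on the same side as most of the other members, yet its 95% interval, -0.92 to 0.01, was wide and held 0. Ntsr2, a neurotensin receptor, had a log2 fold change of -0.43 without overlap. Bmpr1b, a BMP receptor, was at -0.48 and Id4, an inhibitor of helix-loop-helix factors, at -0.21 (-0.64 to 0.21), both with overlap.

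The secreted and surface proteins differed among themselves: 5 had log2 fold changes below 0 and 3 above, with a median of -0.07. F3, tissue factor, measured 51.0, 61.9 and 55.9 CPM in the RC mice and 37.7, 42.5 and 38.8 CPM in the RN mice (log2 fold change -0.50 ± 0.10 SE, adjusted p = 0.124 in edgeR and 0.00801 in DESeq2), and was the only gene of this role past an adjusted p of 0.05 in DESeq2. Agt, angiotensinogen, measured 125, 129 and 153 CPM in the RC mice and 113, 116 and 93.2 CPM in the RN mice (log2 fold change -0.34 ± 0.12 SE, adjusted p = 0.305 in edgeR and 0.213 in DESeq2). Clu, the chaperone clusterin, had -0.35 without overlap. Cst3 (cystatin C), which microglia and choroid plexus also make, and Htra1, a secreted protease, had log2 fold changes of -0.09 (-0.42 to 0.24) and -0.05 (-0.52 to 0.41), and both changed sign when single mice were left out.

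The 3 members above 0 were all secreted or surface proteins. Chrdl1 measured 2.52, 3.88 and 2.46 CPM in the RC mice and 4.94, 4.65 and 4.59 CPM in the RN mice (log2 fold change 0.68 ± 0.25 SE, adjusted p = 0.334 in edgeR and 0.367 in DESeq2). The groups were separate, but its counts were low, with 45, 65 and 43 in RC and 83, 87 and 82 in RN. Mfge8, a bridging protein for the uptake of dying cells, measured 52.9, 102 and 58.8 CPM in the RC mice and 76.3, 108 and 128 CPM in the RN mice (log2 fold change 0.55 ± 0.27 SE, adjusted p = 0.496 in edgeR). RC replicate 2 lay inside the range of the RN mice of Mfge8, well above the other RC mice. Gpc5, a membrane-bound proteoglycan, was at 0.12 (-0.23 to 0.47). None of the 3 passed an adjusted test. In the same mice, genes of macrophages and phagocytes had a median log2 fold change of 0.39 (10 of 12 above 0), with summed levels of 1119 to 1497 CPM over the RC mice and 1921 to 3289 CPM over the RN mice, and all 12 were detected. Gpnmb, a phagocyte membrane protein, had 1.39 and Spp1, osteopontin, 1.38. The 12 genes ran from -0.62 to 1.39, and 7 were higher at an unadjusted p under 0.05 in edgeR. Of all tested genes, 49.2% were below 0 and 5.44% were higher at that p. The part of macrophages and phagocytes in the levels of Mfge8 was not tested.

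**Figure D2:**
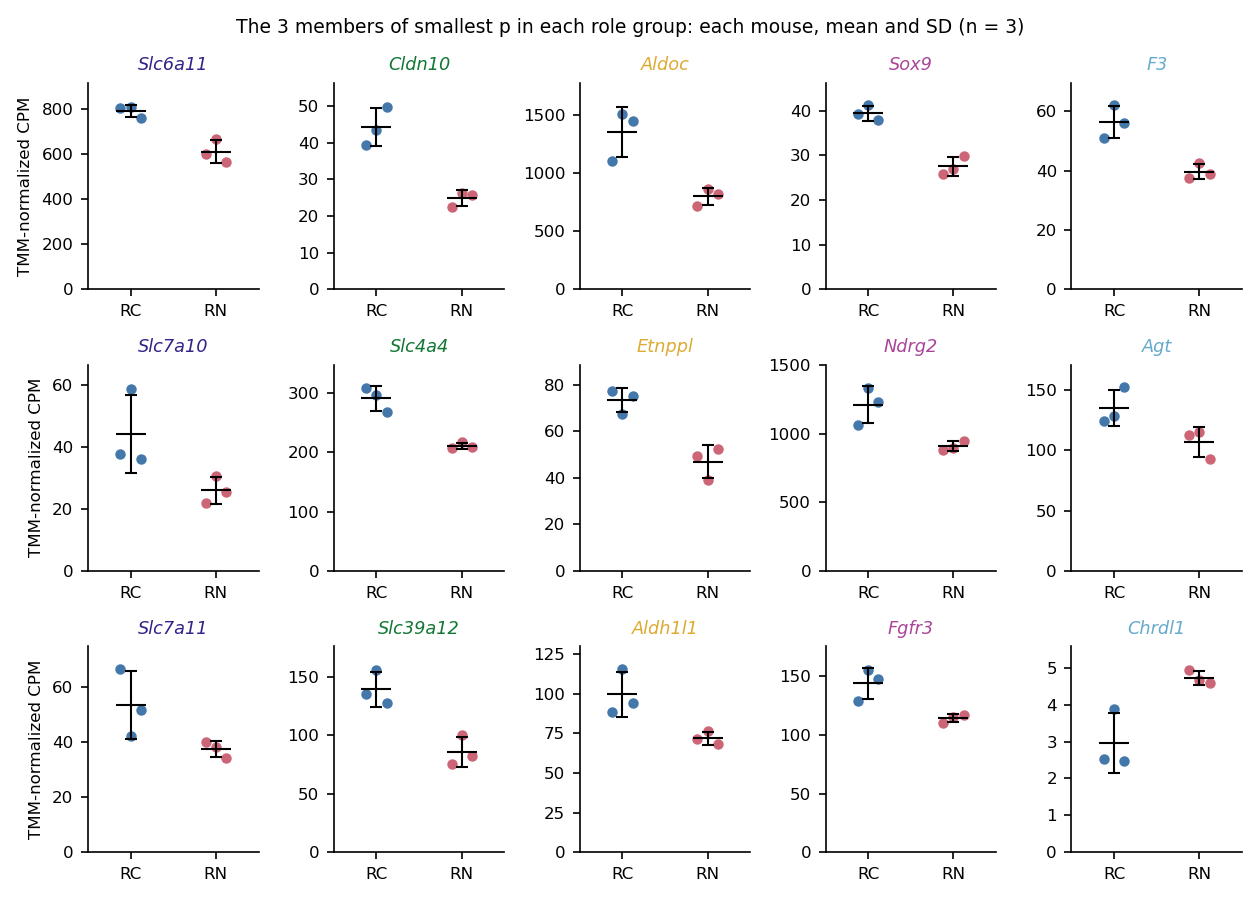
TMM-normalized CPM (y axis, linear, from 0) of the 3 members with the smallest p in each role, 1 point per mouse, with mean and SD of 3 mice as the bar and whisker. Blue points are RC and red points RN. In all 15 panels the groups are separate, and Chrdl1 is the only panel with RN above RC.

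Per kilobase of exon, member levels spanned from 886 CPM per kb (Cst3) to 0.438 CPM per kb (Chrdl1) in RC. The length was the union of all annotated exons of a gene, so the order of the members depends on the annotation. Gfap followed Cst3 at 583 CPM per kb, then Glul at 473, Clu at 417 and Aldoc at 416. The order of the first 4 was the same in RN, where their levels were 831, 425, 371 and 328 CPM per kb. Among the 42, Mfge8 moved from place 31 in RC to place 22 in RN, from 15.2 to 22.2 CPM per kb, and Aldoc and Ndrg2 exchanged places 5 and 6. Lower levels were seen toward both ends of this scale. Aldoc was among the most abundant members and Prodh, at 2.97 CPM per kb in RC and 1.82 in RN, among the least. The members at the very ends differed from these. Cst3 had a log2 fold change of -0.09 with an interval that held 0, and Chrdl1 was higher in RN, at 0.68.

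**Figure D3:**
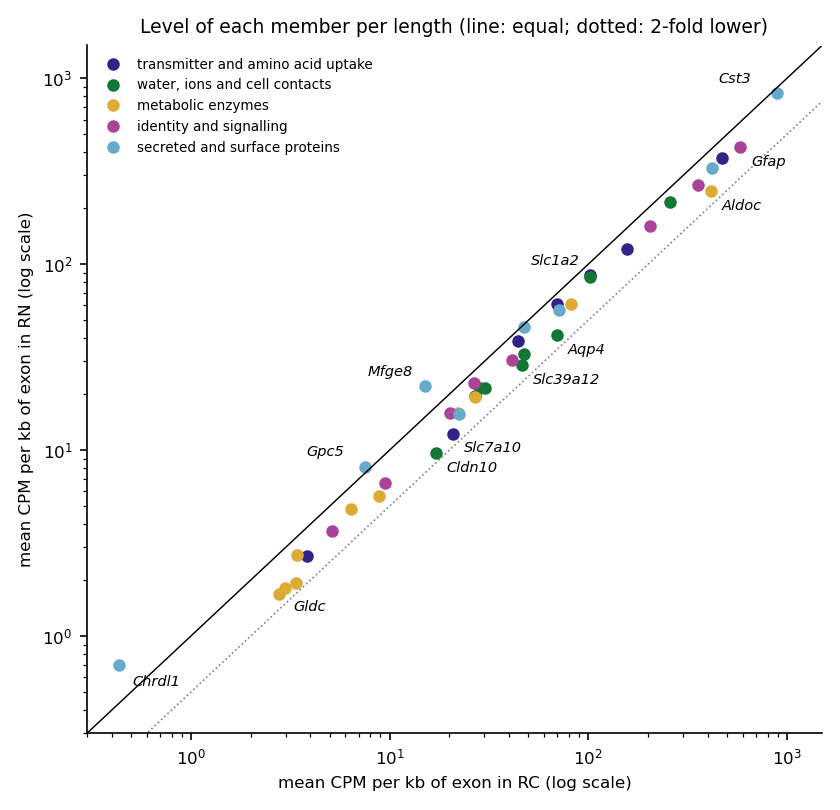
Mean level of each member in RN (y axis) against RC (x axis), both in CPM per kb of exon on log scales, coloured by role. The solid line is equality and the dotted line a 2-fold lower level in RN. 39 points lie below equality, none reaches the dotted line, and Mfge8, Chrdl1 and Gpc5 lie above.

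Within a mouse, 5 of the 6 ratios of members computed overlapped between the groups. The ratio of the counts of Slc1a2 to Slc1a3 was 3.4, 3.34 and 3.89 in RC and 3.29, 3.9 and 3.31 in RN, and that of Gja1 to Gjb6 was 3.84, 3.89 and 3.21 in RC and 3.49, 3.94 and 4.06 in RN. Both pairs overlapped between the groups. Aldoc per Slc1a2 was 0.947, 1.05 and 1.04 in RC and 0.706, 0.784 and 0.634 in RN, without overlap. This ratio restates the log2 fold changes of -0.76 for Aldoc and -0.22 for Slc1a2 and is no separate result. Aqp4 per Gfap was 0.233, 0.135 and 0.179 in RC and 0.178, 0.15 and 0.115 in RN, with overlap. The ratios of Slc7a10 to Slc7a11 and of Glul to Slc1a2 overlapped as well.

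Over the 6 mice the members took 1.52, 1.83 and 1.56% of all counts in RC replicates 1, 2 and 3 and 1.16, 1.36 and 1.33% in RN replicates 1, 2 and 3. Their score, the mean of log2 CPM with each gene centred over the 6 mice, was 0.07, 0.32 and 0.19 in RC and -0.30, -0.14 and -0.12 in RN. The groups did not overlap in either measure. RC replicate 2 was the highest mouse for 28 members and RN replicate 1 the lowest for 25. The median within-group SD of log2 CPM was 0.178 for members and 0.181 for all tested genes, and the median size of the log2 fold change was 0.445 for members and 0.134 for all. Without RC replicate 2 the median log2 fold change of the members was -0.35, and without RN replicate 1 it was -0.37.

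A further 42 genes of astrocytes outside the list, among them channels, metallothioneins and lipoprotein genes, served for comparison. Of these, 33 had log2 fold changes below 0 (49.2% of all tested genes), with a median of -0.28. At an unadjusted p under 0.05, 18 were lower and 3 higher (6.33% and 5.44% of all). At an adjusted p under 0.05 in DESeq2, 8 were lower and 1 higher (1.55% and 1.38% of all). The higher gene was Slc15a2, with a log2 fold change of 0.82. Elovl2, an elongase of long fatty acids, had -0.82, Slc14a1, a urea transporter, -0.90, and Kcnj10, an inward rectifier potassium channel, -0.45, each without overlap and with edgeR adjusted p of 0.0666, 0.0696 and 0.0989. The score of these genes was 0.03, 0.23 and 0.08 in RC and -0.14, -0.10 and -0.09 in RN, so the groups did not overlap here either. Their summed levels did overlap, at 13792 to 15882 CPM over the RC mice and 13056 to 15436 CPM over the RN mice, and Apoe, the main apolipoprotein of brain, held 7121 CPM of the sum in RC and 8439 CPM in RN on average. The 2 lists were not tested against each other.

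Genes of reactive astrocytes did not share one direction. Of 21 tested, 15 were below 0, and the median was -0.12. At an unadjusted p under 0.05, 5 were lower and 5 higher (6.33% and 5.44% of all tested genes). Aspg, an asparaginase, measured 9.72 ± 1.77 CPM in RC against 4.67 ± 0.463 CPM in RN (log2 fold change -1.06 ± 0.20 SE, adjusted p = 0.0986 in edgeR and 0.00249 in DESeq2). Timp1, an inhibitor of matrix proteases, measured 3.91 ± 1.49 CPM in RC against 12.1 ± 4.9 CPM in RN (log2 fold change 1.64 ± 0.37 SE, adjusted p = 0.136 in edgeR and 0.00109 in DESeq2), and S1pr3, a sphingosine phosphate receptor, 29.7 ± 5.76 CPM in RC against 54.4 ± 15.7 CPM in RN (log2 fold change 0.87 ± 0.23 SE, adjusted p = 0.176 in edgeR and 0.00689 in DESeq2). The score of this list was 0.14, 0.15 and -0.14 in RC and -0.50, 0.33 and 0.01 in RN, with overlap, and RN replicate 1 was the lowest of the 6 mice for this list as for the members.

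Markers of other cells and regions differed between the groups beside the members. Of all tested genes, 6.33% were lower and 5.44% higher at an unadjusted p under 0.05, the shares for the list counts below. All 15 choroid plexus genes had log2 fold changes below 0 (median -2.99, 12 lower at an unadjusted p under 0.05), and Ttr, transthyretin, measured 2480.2, 7626 and 257 CPM in the RC mice and 24.7, 62.5 and 91.8 CPM in the RN mice. Their summed level was 727 to 11088 CPM over the RC mice and 439.6 to 545 CPM over the RN mice, and none was at 0 in all mice. The score of the choroid plexus list was 1.51, 2.73 and -0.75 in RC and -1.31, -1.03 and -1.15 in RN, without overlap. RC replicate 3 held little of it, while the member score of that mouse was 0.19, between those of the other RC mice. RC replicate 2 was the highest of the 6 mice on both scores (choroid plexus 2.73, members 0.32). RN replicate 1 was the lowest on both (-1.31 and -0.30). As the score went largely with group, a fit with both terms cannot separate the choroid plexus part from the group difference. When edgeR took the choroid plexus score as covariate, the median log2 fold change of the members was -0.34, 37 were below 0 (48.2% of all tested genes in that fit), and 19 were lower (4.39% of all) and 3 higher (5.14% of all) at an unadjusted p under 0.05. With that covariate Aldoc was at -0.75, Cldn10 at -0.97 and Aqp4 at -0.59, while Gfap was at -0.10, Slc7a10 at -0.30 and Glul at -0.12. Slc1a3 was then at -0.05, Clu at -0.06 and Mlc1 at -0.08. Gldc turned to 0.24 and Cst3 to 0.04. Mfge8 and Chrdl1 were then at 1.06 and 1.09, none with an adjusted p under 0.05.

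**Figure D4:**
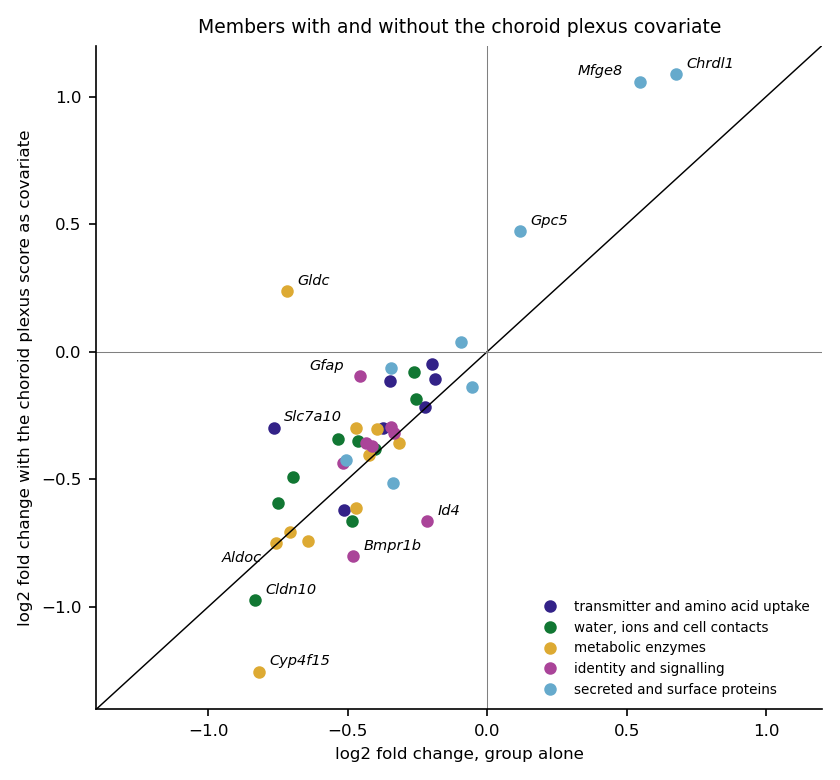
Log2 fold change of each member with the choroid plexus score as covariate (y axis) against that of group alone (x axis), coloured by role, with the line of equality. 37 points are below 0 on the y axis, Gldc and Cst3 cross to above 0, and Gfap moves from -0.46 to -0.10.

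Ependymal genes had log2 fold changes below 0 in 13 of 13 (median -0.90, 9 lower at an unadjusted p under 0.05), with summed levels of 163 to 185 CPM over the RC mice and 82.8 to 115 CPM over the RN mice and no overlap. Hypothalamic genes were above 0 in 13 of 13 tested (median 1.37, 8 higher at an unadjusted p under 0.05) and sums of 149 to 299 CPM over the RC mice and 487 to 581 CPM over the RN mice. Thalamic neuron genes had a median of -0.49, with all 14 below 0 and sums that overlapped. Endothelial genes, of the vessels that astrocyte endfeet cover, had 10 of 12 below 0 (median -0.30, 6 lower at an unadjusted p under 0.05), and their scores were 0.28, 0.06 and 0.16 in RC and -0.35, -0.02 and -0.12 in RN. General neuron genes had a median of 0.16, oligodendrocyte genes -0.17, oligodendrocyte precursor genes 0.07, microglial genes 0.08, telencephalic genes 0.18 and pericyte and smooth muscle genes 0.02. No marker of these lists was at 0 in all 6 mice. The part that the regions and cells in the removed tissue had in the levels of the members was not tested. The choroid plexus covariate went largely with group and cannot show that part.

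**Figure D5:**
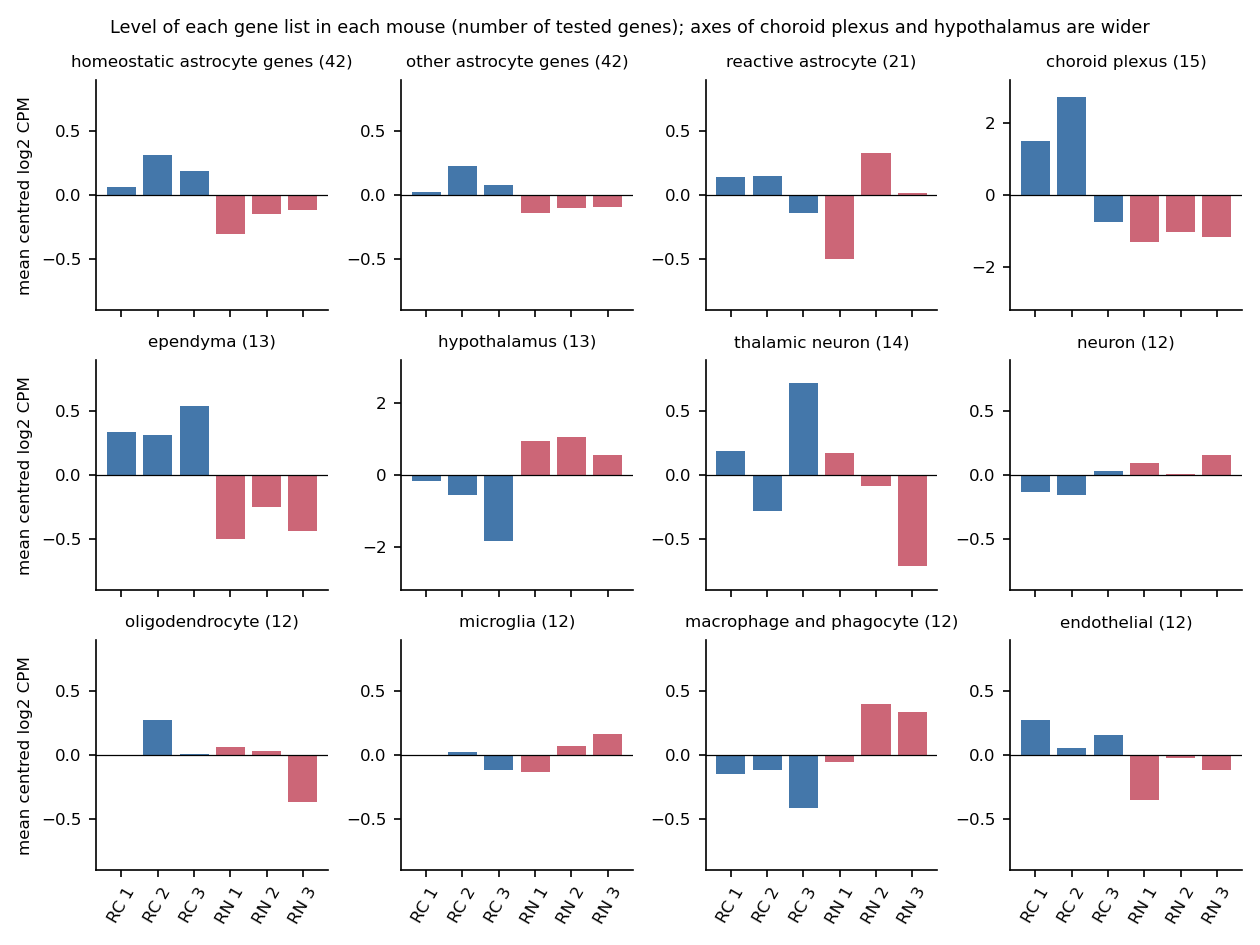
Mean centred log2 CPM (y axis) of each gene list in each mouse (x axis, RC in blue and RN in red), with the number of tested genes in brackets. The members lie at 0.07, 0.32 and 0.19 in RC and -0.30, -0.14 and -0.12 in RN, the choroid plexus list is high in RC replicates 1 and 2, and the reactive astrocyte list is mixed within RN.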

How the data were processed

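Thalamus tissue from a coronal slice of 3 RC and 3 RN mice was analysed, grouped by the labels. The table that the authors deposited holds read counts, 1 whole number per gene and mouse, not normalized. The submitters' processing notes name fastp 0.18.0, FastQC, HISAT2 2.2.4, RSEM 1.2.19 and GRCm39. Use of strand and of shared reads is not given in the sources used here, so members that overlap other genes are uncertain. Totals of 16561663 to 18657015 counts set the depth, and the between-mouse coefficient of variation was 17.4%.

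edgeR 4.0.16 in R 4.3.3 filtered genes with filterByExpr (minimum count 10), normalized by TMM and fitted a quasi-likelihood model (legacy option) with group as its term. Benjamini-Hochberg adjustment ran over 14956 genes. The study's methods name DESeq2 (version 1.42.0 was run) and thresholds of 0.05 for the false discovery rate and 2 for the fold change, which were used here. Log2 CPM used a prior count of 2, fitted changes a prior count of 0.125, and SE was taken from the F statistic. The scripts were tested on simulated data. Exon lengths came from GENCODE M21 and start windows from RefSeq GRCm38.p6.

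The members, lists and tests were chosen with earlier results of these data known. All 42 members are named, with values per mouse for the 3 of smallest p in each role and for Aqp4, Gfap and S100b, and up to 3 genes by smallest p from other lists. Gldc and Mfge8 were given per mouse, and Apoe and Slc15a2 were named, after their values were seen. Libraries of a group differed by 15.8 to 31.8 times the sampling noise of counts (chi-square divided by its degrees of freedom) and were kept apart. The labels do not say what a replicate number shares. Mice of the same number deviated together (correlations across genes of 0.173, 0.120 and 0.209), but RC replicate 1 and RN replicate 2 did so too, at 0.156. All 3 same-number pairs exceeded 0.1, so blocked values are given where they change a call. Alternatives changed the tool, scaling, filter, block, covariate or mice. The fit without the legacy option and the variants of DESeq2 were added after seeing the data.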

Additional observations from a re-analysis of the deposited data

How the results depend on the processing

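Of the 42 members, 36 had log2 fold changes below 0 and 3 above 0 under all 15 alternatives in edgeR and DESeq2, and Gldc, Cst3 and Htra1 took either sign. Gldc turned to 0.24 and Cst3 to 0.038 with the choroid plexus covariate. With single mice left out, Cst3 ran from -0.18 to 0.050 (above 0 without RC replicate 2 and without RN replicate 1) and Htra1 from -0.23 to 0.10 (above 0 without RC replicate 2, RC replicate 3 or RN replicate 1). At an adjusted p under 0.05 with no fold threshold, edgeR gave 0 members, 1 with no filter on low counts (Cldn10), 1 with the replicate block (Aldoc), and DESeq2 16. The block changed no other call of a member, and 33 were lower and 2 higher at an unadjusted p under 0.05 with it, where 6.97% of all genes were lower and 6.63% higher. DESeq2 gave 2 higher at that level (4.4% of all). With the choroid plexus covariate, 19 were lower and 3 higher (4.39% and 5.14% of all). In DESeq2, 21 members passed with the replicate block and 5 with the choroid plexus covariate. That covariate went largely with group, so its fit cannot separate them.

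With each mouse left out in turn, the median log2 fold change lay between -0.46 and -0.35, 25 to 31 members were lower and 0 to 3 higher at an unadjusted p under 0.05, where 4.91% to 6.81% of all genes were lower and 3.7% to 6.72% higher. Without overlap, 27 to 33 members were lower and 1 to 3 higher. With 2 mice against 3, 11.7% to 15.6% of all genes were lower and 12.2% to 15.4% higher without overlap, more than with 3 against 3. DESeq2 then passed 7 to 20 members (0.734% to 1.73% of all genes), 7 without RN replicate 1 and 10 without RC replicate 2. Scalings moved the median of all genes by at most 0.02. The cause of these differences was not tested. The median SE of a member was 0.126 on the log2 scale with 3 mice a group.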
